A study of Mus musculus with 12 samples.

Results

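The libraries described here were the 6 of peritoneal macrophages among the 12 of the series, 3 that received a lentivirus with a control short hairpin RNA (shNC) and 3 that received one with a hairpin directed at Gm26917, a long non-coding RNA (shGm26917). They were chosen by their labels, and the 6 remaining libraries, from liver, were not used. All 6 were peritoneal macrophages of C57BL/6 mice that had carried the virus for 72 h and then received LPS for 2 h, so the virus and LPS were common to both groups and the hairpin was what differed. Gene expression was measured by RNA sequencing as read counts per gene, and 12876 of 55401 genes passed a filter on low counts and were tested. A short hairpin RNA is processed into a small RNA that directs the degradation of a matching transcript. The series title links Gm26917 to macrophage differentiation and to the protein Annexin A1, and the comparison asked which transcripts differed when the hairpin was present. No macrophage library without LPS was analysed here, so a difference in the response to LPS and a difference already present before LPS cannot be told apart.

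LPS, a component of the outer membrane of Gram-negative bacteria, is sensed on macrophages by toll-like receptor 4 with its partner CD14. One branch of the signal, through the adaptor MyD88, activates NF-kB and induces cytokines and chemokines such as interleukin-6 and CXCL1. A later branch, through TRIF, activates IRF3 and the production of interferon-beta, which then acts back on the cells and induces the interferon-stimulated genes. Resident peritoneal macrophages are long-lived phagocytes that clear dying cells and hold large lysosomal and lipid-handling capacity.

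Gm26917 itself (ENSMUSG00000097971, annotated in GENCODE M21 as a lincRNA on the plus strand of chromosome 17, 39843013 to 39846341 in GRCm38) had a row in 0 of the 6 macrophage tables used, so its level with the hairpin was not analysed here and the labels could not be checked against it. Total counts were 15605311 to 18062853 per library, with at least 1 count in 17303 to 18425 genes. Levels are given throughout in CPM, read counts scaled to library size. The 15 macrophage core markers summed to 16200 to 25210 CPM in shNC and 23140 to 32320 CPM in shGm26917 libraries. Among them the receptor Adgre1 stood at 996 to 2092 CPM over the 6 libraries. The lysosomal glycoprotein Cd68 stood at 788 to 1608 CPM and the lysozyme Lyz2 at 3097 to 19199 CPM. One control library stood apart. Replicate 2 of shNC correlated with shNC replicates 1 and 3 at r = 0.943 and 0.942 across genes (log2 CPM), against 0.985 between those libraries and 0.982 to 0.984 among the shGm26917 libraries. The first principal component, 63.7% of the variance, separated the hairpins, and the second, 22.9%, separated shNC replicate 2 from the other controls. Interferon-stimulated genes summed to 29480 CPM in that library and to 5119 and 10830 CPM in shNC replicates 1 and 3, and results that rest on it are given with and without it. Nothing in the labels says that replicates came from separate animals or cultures, so p-values measure the spread between these libraries, which may be technical.

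Promoter windows of 5 genes that were lower with shGm26917 are printed here, since these genes carry the interferon and cytokine results below and their windows hold motifs of the factors that LPS activates. The windows run from 250 bases before to 50 bases after the transcript start in RefSeq on GRCm38.p6, are written 5′ to 3′ along the gene, and show in capitals each match on either strand. Cxcl10 (chr5:92348840-92349139, minus strand), Ifit1 (chr19:34640639-34640938, plus strand) and Isg15 (chr4:156200769-156201068, minus strand) hold matches of GAAA, any 2 bases and GAAA in succession, the core of the interferon-stimulated response element. In Isg15 there are 3 matches in a row, each overlapping the next.
Cxcl10: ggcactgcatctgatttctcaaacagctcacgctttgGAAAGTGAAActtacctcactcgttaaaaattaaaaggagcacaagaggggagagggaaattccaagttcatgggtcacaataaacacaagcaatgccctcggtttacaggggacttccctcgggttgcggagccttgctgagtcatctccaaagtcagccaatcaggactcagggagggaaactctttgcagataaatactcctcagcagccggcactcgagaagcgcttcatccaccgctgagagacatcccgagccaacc
Ifit1: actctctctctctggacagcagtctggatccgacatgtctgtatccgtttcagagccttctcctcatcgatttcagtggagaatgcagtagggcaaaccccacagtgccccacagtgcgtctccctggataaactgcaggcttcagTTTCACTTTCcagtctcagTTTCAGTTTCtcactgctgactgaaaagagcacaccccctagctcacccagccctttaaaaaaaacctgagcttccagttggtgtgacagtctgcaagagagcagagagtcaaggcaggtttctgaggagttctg
Isg15: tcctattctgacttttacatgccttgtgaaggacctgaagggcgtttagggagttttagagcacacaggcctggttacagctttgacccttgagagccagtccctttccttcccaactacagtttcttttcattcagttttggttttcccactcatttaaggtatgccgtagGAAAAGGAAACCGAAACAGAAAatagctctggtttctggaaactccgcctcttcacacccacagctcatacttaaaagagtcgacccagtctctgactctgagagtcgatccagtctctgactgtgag
The windows of Il6 (chr5:30012864-30013163, plus strand) and Cxcl1 (chr5:90890995-90891294, plus strand) hold a match of GGGA, any base and TTTCC in succession, a form of the NF-kB motif.
Il6: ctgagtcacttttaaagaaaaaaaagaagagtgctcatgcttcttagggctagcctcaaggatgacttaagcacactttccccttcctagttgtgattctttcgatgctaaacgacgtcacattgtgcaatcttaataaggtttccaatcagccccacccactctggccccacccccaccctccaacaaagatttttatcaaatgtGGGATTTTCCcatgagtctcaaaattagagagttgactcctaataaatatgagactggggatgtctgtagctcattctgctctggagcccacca
Cxcl1: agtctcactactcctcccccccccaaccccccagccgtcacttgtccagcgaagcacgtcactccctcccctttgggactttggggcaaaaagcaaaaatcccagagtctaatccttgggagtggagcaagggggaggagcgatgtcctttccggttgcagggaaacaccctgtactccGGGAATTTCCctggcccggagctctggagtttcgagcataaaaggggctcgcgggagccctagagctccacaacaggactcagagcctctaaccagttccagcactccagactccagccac
Of the tested genes 8623 had such a window. The interferon motif stood in 9.14% of the 963 windows of genes that were lower with shGm26917, in 2.82% of the 1136 of genes that were higher and in 2.61% of the 6524 of genes not called, against 3.43% of all 32817 RefSeq windows of this length. It stood in 18 of 32 windows of the interferon-stimulated list (56.2%). The NF-kB motif was rare, in 0.623% of windows of lower genes, 0.352% of higher genes and 0.411% of all windows, and in 3 of 12 windows of chemokine genes. These are matches of letters in a short window and carry no test.

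Of the 12876 genes, 1618 were higher with shGm26917 (12.6%) and 1431 were lower (11.1%) at an adjusted p under 0.05 (edgeR quasi-likelihood test, Benjamini-Hochberg), 3049 in all or 23.7%. In 3043 of these 3049 genes the libraries of the hairpins were fully separated, as they were in 45.9% of all genes tested (24.2% with shGm26917 above and 21.7% with it below). The median log2 fold change was 1.07 among higher and -1.07 among lower genes, and 868 rises and 770 falls were of at least 1 in size. At the extremes falls outnumbered rises. Of lower genes 193 had a log2 fold change of -3 or beyond and 63 of -5 or beyond. Of higher genes 86 had one of at least 3 and 12 one of at least 5. Most of the called genes coded for protein, 1539 of those higher and 1319 of those lower. Scaling by library totals alone moved the median over all genes from -7e-04 to 0.29 on the log2 scale. With it 3135 genes (24.3%) were called higher and 794 (6.17%) lower, so that rises made up 79.8% of the calls instead of 53.1%. Every difference given here is relative to TMM scaling, whose factors were 0.863 to 0.958 in shNC and 1.09 to 1.12 in shGm26917 libraries. Without shNC replicate 2, 5236 genes were called (2715 higher, 20.5% of those tested, and 2521 lower, 19.1%), and 3014 of the 3049 were among them. Without shGm26917 replicate 1, 2 or 3, 1341, 839 and 978 genes were called, and without shNC replicate 1 or 3, 2129 and 1679. No gene called with all 6 libraries had the opposite sign in any of the 6 fits with a library left out. This outcome was nearly fixed in advance, since the hairpins were already fully separated in 3043 of these 3049 genes.

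**Figure D1:**
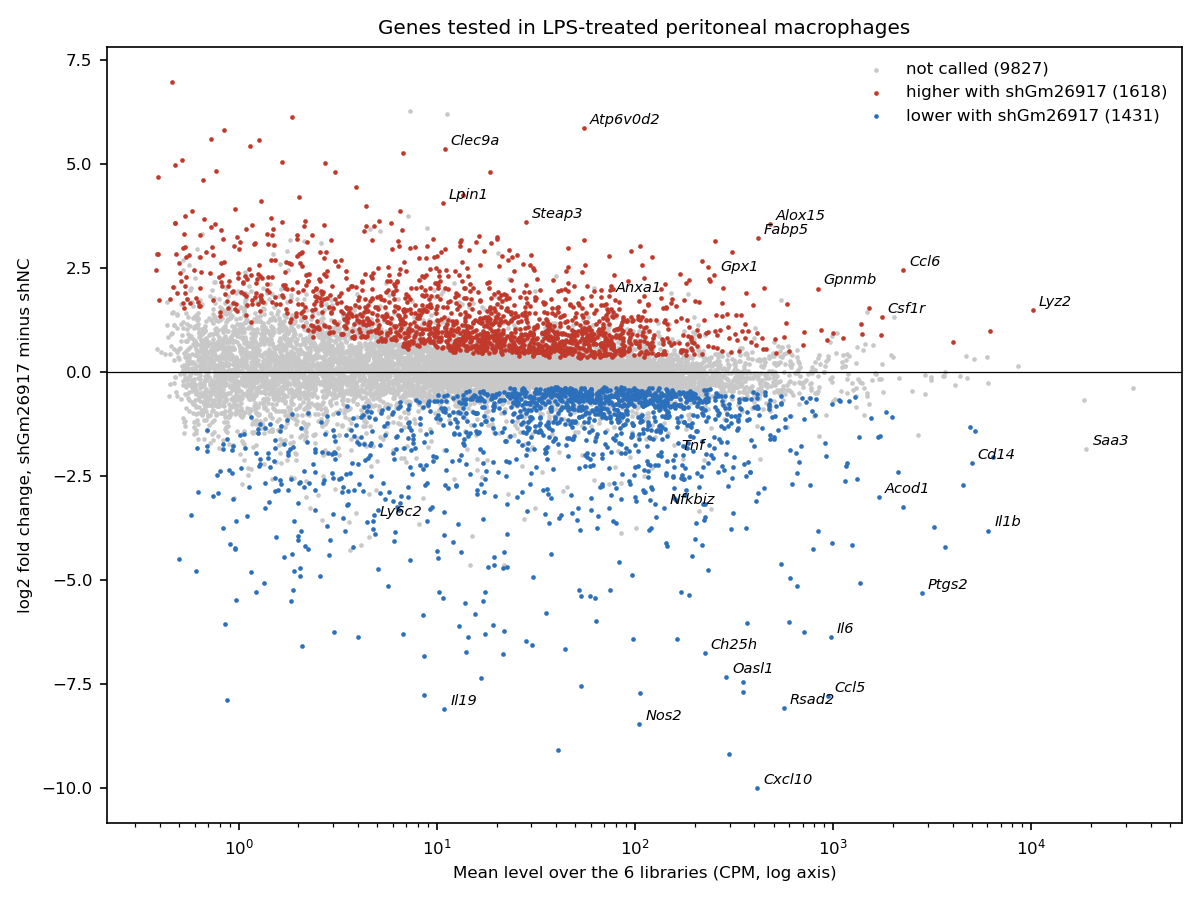
Log2 fold change (shGm26917 minus shNC) against the mean level over the 6 libraries (CPM, log axis) for the 12876 genes tested, with the 1618 genes called higher in red and the 1431 called lower in blue. The most negative fold changes, down to -9.99 for Cxcl10, lie further from 0 than the most positive one among the named genes, 5.86 for Atp6v0d2.

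Interferon-stimulated genes were lower as a group. Of 42 tested, 40 were called lower and 0 higher, beside 11.1% and 12.6% of all genes, with a median log2 fold change of -3.38. With library totals 40 were also lower, and without shNC replicate 2 the count was 41, with 1 higher and a median of -2.46. Fewer were called without shGm26917 replicate 1, 2 or 3 (17, 12 and 13), while the median stayed between -3.82 and -2.46 in all 6 fits with a library left out. Fewer cells of a kind and less of a transcript per cell cannot be told apart in such bulk libraries. Counts of the lists that follow stand beside the shares of all genes in the same fit. With all 6 libraries and TMM scaling these were 11.1% lower and 12.6% higher. With library totals they were 6.17% and 24.3%, and without shNC replicate 2 19.1% and 20.5%. Without shNC replicate 1 or 3, 1084 and 801 of 13299 and 13289 genes were lower and 1045 and 878 higher. Without shGm26917 replicate 1, 2 or 3, 611, 360 and 406 of 13268, 13218 and 13244 were lower and 730, 479 and 572 higher.

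Cxcl10, a chemokine for T cells that interferons induce, stood at 70.1, 2155 and 247 CPM in shNC replicates 1, 2 and 3 and at 0.407, 0.383 and 1.64 CPM with shGm26917. All 3 controls lay far above all 3 shGm26917 libraries, and replicate 2 was the highest by a wide margin. Its log2 fold change was -9.99 (SE 1.71, edgeR adjusted p = 0.0106), -7.64 without shNC replicate 2 (adjusted p = 0.000235) and -10.99 without shGm26917 replicate 3, and the call was lost without shGm26917 replicate 2 (0.0575). Ifit1, whose protein binds viral RNA that lacks the host's cap, stood at 107, 1636 and 358 CPM in shNC and 5.45, 2.74 and 3.86 CPM in shGm26917 libraries. Its log2 fold change was -7.44 (SE 1.16, edgeR adjusted p = 0.00834) and -5.86 without shNC replicate 2. Isg15, a ubiquitin-like protein that is attached to other proteins, showed less spread among controls, with 325, 1059.8 and 781 CPM against 12.8, 9.25 and 10.9 CPM (log2 fold change -6.04, SE 0.50, edgeR adjusted p = 0.00233; like Irf7, chosen after its values were seen). Oasl1, an inhibitor of IRF7 translation, stood at 244, 906 and 566 CPM in shNC and 4.94, 2.35 and 3.402 CPM in shGm26917 libraries (log2 fold change -7.32, SE 0.63, edgeR adjusted p = 0.00235). Both kept the call in each fit with a library left out.

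Further antiviral effectors followed the same order of libraries, with shNC replicate 2 highest and the shGm26917 libraries lowest. Rsad2, the antiviral enzyme viperin, had a log2 fold change of -8.06, Ifit2 of -7.54, Ifit3 of -9.17 and Ifit3b of -9.07. Ifit3 and Ifit3b are near-identical copies between which reads may have been split. Without shNC replicate 2 these values were -6.84, -5.86, -5.62 and -5.08, and Ifit3 stood at -9.79 without shGm26917 replicate 3 and Ifit3b at -8.47 without replicate 1. Ifit3 and Ifit3b lost the call without any 1 shGm26917 library (adjusted p 0.0788 to 0.114), Ifit2 without replicate 2 (0.0541), and Rsad2 in no such fit. Among the remaining interferon-related genes of the largest falls were Ifi206, Ifit1bl1 and Apol9b, at -7.70, -7.34 and -7.75, and at -5.02, -5.30 and -4.46 without shNC replicate 2. All 3 lost the call without any 1 shGm26917 library (adjusted p 0.061 to 0.12).

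A transcription factor of the interferon response was lower as well, and its part in the falls above was not tested. Irf7, the interferon regulatory factor that amplifies the response, stood at 205, 3145 and 461 CPM in shNC and 48.3, 31.2 and 29.4 CPM in shGm26917 libraries (log2 fold change -5.13, SE 1.09, edgeR adjusted p = 0.0195, and -3.22 without shNC replicate 2). Its call was lost without any 1 shGm26917 library (adjusted p 0.0688 to 0.0891). Of 21 tested sensors of nucleic acids, 8 were lower and 1 higher (3, 1 and 1 lower without shGm26917 replicate 1, 2 or 3, and 4 higher without shNC replicate 2). Ifih1, the cytosolic RNA sensor MDA5, had a log2 fold change of -3.07 (edgeR adjusted p = 0.00421).

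Cytokine transcripts were lower in 18 of 23 tested cases and higher in 0, with a median log2 fold change of -3.60 (-3.30 with library totals and -3.35 without shNC replicate 2, where 21 were lower). With shGm26917 replicate 1, 2 or 3 left out, 14, 9 and 10 were lower. Il6, which encodes the fever and acute phase cytokine interleukin-6, stood at 1774, 273 and 3707 CPM in shNC and 30.5, 12.98 and 25.97 CPM in shGm26917 libraries. The groups were far apart, and here shNC replicate 2 was the lowest control, the reverse of its place among the interferon genes. The log2 fold change of Il6 was -6.37 (SE 1.02, edgeR adjusted p = 0.00901) and -5.47 without shNC replicate 3, and the call held in all 6 fits with a library left out, although with an adjusted p just under the threshold without shGm26917 replicate 2 (0.0499) or 3. Csf3, the granulocyte growth factor G-CSF, stood at 1177, 617 and 2417 CPM against 25.8, 9.36 and 19.96 CPM, a log2 fold change of -6.25 (SE 0.69, edgeR adjusted p = 0.00372; -5.62 without shNC replicate 3). Il19, a member of the interleukin-10 family, stood at 6.498, 33.7 and 24.8 CPM against 0, 0.110 and 0.113 CPM (-8.08, SE 0.94, edgeR adjusted p = 0.00425).

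Interleukin-1 transcripts were among the most abundant that differed. Il1b stood at 12223, 3911 and 17664 CPM in shNC and 1244, 436 and 732 CPM in shGm26917 libraries, and Il1a at 7151, 2625 and 10963 CPM and 524, 225 and 386 CPM. The lowest control exceeded the highest shGm26917 library in each case. Log2 fold changes were -3.81 (SE 0.67, edgeR adjusted p = 0.0114) and -4.19 (SE 0.62, edgeR adjusted p = 0.00713), and the call of Il1b was lost without shGm26917 replicate 2 (0.0543) or 3 (0.0622). Tnf, the cytokine that macrophages release first, differed less, with 299, 149.7 and 316 CPM against 67.4, 44.8 and 81.4 CPM (log2 fold change -1.98, SE 0.35, edgeR adjusted p = 0.011), a call lost without shGm26917 replicate 2 (0.0513). Tnf, Il1a and Cxcl1 were chosen after their values were seen. Il12b, the p40 subunit of interleukins 12 and 23, had a log2 fold change of -6.10 (edgeR adjusted p = 0.0161), -5.19 without shNC replicate 3 and -7.27 without shGm26917 replicate 3, and its call was lost without any 1 shGm26917 library (adjusted p 0.0542 to 0.0736). Il10, the anti-inflammatory cytokine, was lower too, at 4.69, 16.1 and 5.74 CPM against 0.865, 0.219 and 0.850 CPM (-3.76, edgeR adjusted p = 0.0122, -3.01 without shNC replicate 2), with the call lost without shGm26917 replicate 3 (0.0533).

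Chemokines moved mostly down, with 12 of 19 lower and 1 higher and a median log2 fold change of -2.82 (12 lower and 3 higher with library totals, 13 and 2 without shNC replicate 2). Without shGm26917 replicate 2 or 3, 7 were lower in each case. Ccl5, which attracts T cells and monocytes, stood at 1989, 205 and 3409 CPM in shNC and 9.47, 6.79 and 9.24 CPM in shGm26917 libraries (log2 fold change -7.78, SE 1.10, edgeR adjusted p = 0.00641; -7.02 without shNC replicate 3). The monocyte chemokines Ccl2 and Ccl7 stood at 483, 2255 and 777 and at 187, 1499.5 and 403 CPM in shNC replicates 1, 2 and 3, and at 19.4, 18.7 and 17.01 and at 4.63, 2.57 and 2.83 CPM in shGm26917 libraries. Replicate 2 of shNC was the lowest control for Ccl5 and the highest for Ccl2 and Ccl7. Log2 fold changes were -6.00 for Ccl2 and -7.69 for Ccl7 (edgeR adjusted p = 0.00368 and 0.00485), and -5.12 and -6.47 without that library. Cxcl1, which attracts neutrophils and whose promoter is printed above, stood at 2717, 835 and 4395 CPM against 96.3, 57.9 and 82.9 CPM (-5.07, SE 0.65, edgeR adjusted p = 0.00508). In the opposite direction, Ccl6, a chemokine that macrophages make without stimulation, stood at 852, 274 and 970.4 CPM in shNC and 3524, 4224 and 3643 CPM in shGm26917 libraries (log2 fold change 2.44, SE 0.47, edgeR adjusted p = 0.0142), a call lost without shGm26917 replicate 2 (0.0578) or 3 (0.0545).

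Markers of classical activation were mostly lower. This list shares Cxcl10 with that of chemokines, so its counts are not separate from those above. Of 21 tested markers 16 were lower and 1, the adhesion molecule Icam1, was higher, with a median of -2.18 (14 lower and 2 higher with library totals, and 6 and 7 lower without shGm26917 replicate 2 or 3). Nos2, the inducible nitric oxide synthase, stood at 30.2, 531 and 68.5 CPM in shNC and 0.916, 0.383 and 0.454 CPM in shGm26917 libraries (log2 fold change -8.45, SE 1.41, edgeR adjusted p = 0.00979; -6.38 without shNC replicate 2). Its call was lost without shGm26917 replicate 2 (0.0546) or 3 (0.0541). Ptgs2, the inducible cyclooxygenase of prostaglandin synthesis, stood at 4770.4, 1757 and 9850.4 CPM against 240.2, 58.04 and 114 CPM (-5.31, SE 0.85, edgeR adjusted p = 0.00901; -4.58 without shNC replicate 3 and -5.98 without shGm26917 replicate 1, and not called without shGm26917 replicate 3, 0.0515). Acod1, which makes itaconate from a tricarboxylic acid cycle intermediate, had tight groups of 2980.4, 2658 and 3412 CPM and 364, 323 and 434 CPM. Its log2 fold change of -3.01 (SE 0.21, edgeR adjusted p = 0.00233) held in all 6 fits with a library left out, as did that of Slc7a2, the arginine transporter, at -2.71 (edgeR adjusted p = 0.00762). Ch25h, a member of the lipid list that makes an antiviral oxysterol, stood at 316, 681 and 334 CPM against 4.73, 1.81 and 5.78 CPM (-6.75, SE 0.58, edgeR adjusted p = 0.00235). Icam1 was higher by 0.87 (edgeR adjusted p = 0.0191), a call lost without shNC replicate 1 (0.0533) or any 1 shGm26917 library (0.0638 to 0.0765).

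**Figure D2:**
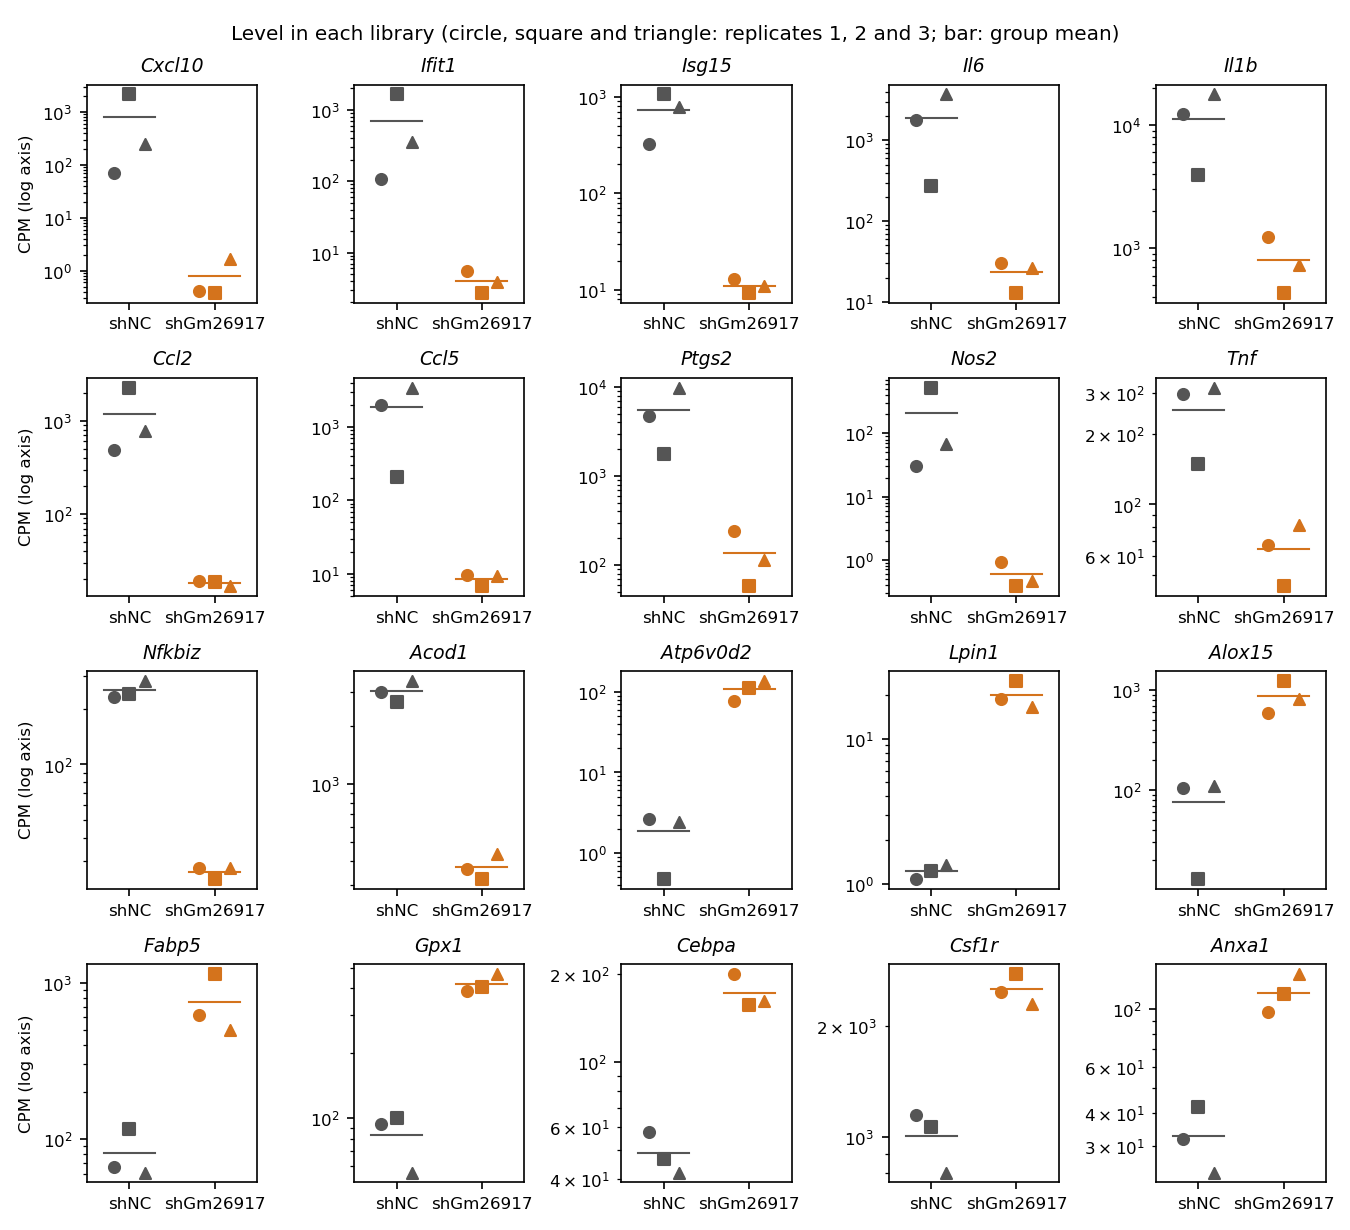
Level of 20 genes in each library (CPM, log axis; circle, square and triangle are replicates 1, 2 and 3, and bars are group means of 3 libraries). The groups are apart in every panel, and shNC replicate 2 is the highest control for Cxcl10, Ifit1, Ccl2 and Nos2 and the lowest for Il6, Il1b, Ccl5 and Ptgs2.

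Subunits and feedback regulators of NF-kB were lower in 19 of 33 tested cases and higher in 1, with a median log2 fold change of -1.26 (15 lower with library totals, 23 without shNC replicate 2, and 13, 11 and 12 without shGm26917 replicate 1, 2 or 3). Nfkbiz, the nuclear inhibitor IkB-zeta that is needed for Il6 induction, stood at 232, 242 and 283 CPM in shNC and 27.4, 23.9 and 27.6 CPM in shGm26917 libraries. Its groups were tight, and its log2 fold change of -3.26 (SE 0.14) had the smallest edgeR adjusted p of all genes tested, 0.0014. Zc3h12a, the RNase Regnase-1 that degrades cytokine transcripts, stood at 518, 401 and 614 CPM against 92.6, 66.96 and 71.5 CPM (-2.73, edgeR adjusted p = 0.00233). Tnfaip3, the deubiquitinase A20, stood at 1071, 888 and 1266 CPM against 196, 136 and 170.3 CPM (-2.68, edgeR adjusted p = 0.00233). The 3 shNC libraries lay close together for these 3 genes, which all kept the call in each fit with a library left out. Zfp36l2, an RNA-decay factor, was the member that was higher (0.89, edgeR adjusted p = 0.0142), a call lost without any 1 shGm26917 library (0.0518 to 0.0575).

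Receptors and adaptors upstream differed less and in both directions. Of 28 toll-like receptors and adaptors, 7 were lower and 3 higher, with a median of -0.43 (4 lower and 6 higher with library totals, 10 and 9 without shNC replicate 2, and 3, 2 and 2 lower without shGm26917 replicate 1, 2 or 3). Cd14, the LPS co-receptor, stood at 8551, 3766 and 12221 CPM in shNC and 2208, 1370.4 and 1789.8 CPM in shGm26917 libraries (log2 fold change -2.19, SE 0.46, edgeR adjusted p = 0.0182), a call lost without any 1 shGm26917 library (0.0561 to 0.083). Irak3, the kinase-dead inhibitor of the pathway, stood at 416, 418 and 417 CPM against 176, 161 and 168 CPM (-1.31, SE 0.11, edgeR adjusted p = 0.00242), with almost no spread within either group. Ticam2, the adaptor TRAM of the TRIF branch, was higher at 5.83, 6.42 and 4.25 CPM against 16.9, 29.5 and 24.9 CPM (2.11, SE 0.26, edgeR adjusted p = 0.00492). Among immediate early genes, transcription factors and inhibitors induced within minutes, 13 of 26 were lower and 2 higher (median -0.72; 9 and 4 with library totals, and 5, 5, 3 and 4 lower without shNC replicate 3 or shGm26917 replicate 1, 2 or 3). Ier3, an anti-apoptotic member, had a log2 fold change of -2.16 (edgeR adjusted p = 0.00342), and Egr2 was higher at 1.61 (edgeR adjusted p = 0.0121), a call lost without shGm26917 replicate 3 (0.0536).

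Secreted growth factors and matrix proteins were lower in 13 of 28 tested cases and higher in 3, with a median of -0.75 (12 and 3 with library totals, and 8, 7, 5 and 4 lower without shNC replicate 3 or shGm26917 replicate 1, 2 or 3). Inhba, the activin A subunit, stood at 1671, 892 and 3053 CPM against 194, 52.2 and 77.7 CPM (-4.12, edgeR adjusted p = 0.00958; -4.85 without shGm26917 replicate 1, and not called without replicate 3, 0.0528). Timp2, an inhibitor of matrix metalloproteinases, was higher, with 89.9, 77.3 and 80.3 CPM against 328, 500.3 and 334 CPM (2.23, SE 0.20, edgeR adjusted p = 0.00256), and so was the insulin-like growth factor Igf1 (1.69, edgeR adjusted p = 0.00844). The last 2 kept the call in each fit with a library left out.

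Genes of protein folding and export were lower by small amounts in many members. In the unfolded protein and integrated stress list 18 of 29 were lower and 0 higher, with a median of -0.65, and in the secretory pathway list, which covers translocation into the endoplasmic reticulum and vesicle coats, 17 of 30 were lower and 0 higher, with a median of -0.64. These small differences depended on the scaling, since with library totals 9 and 8 were lower and the medians were -0.36 and -0.35. With 1 library left out the medians changed little, at -0.83 to -0.63 in the first list and -0.73 to -0.59 in the second. The counts changed more, as did those over all genes. Without shGm26917 replicate 1, 2 or 3, 6, 5 and 5 were lower in the first list and 5, 2 and 2 in the second. In these fits 611 of 13268, 360 of 13218 and 406 of 13244 genes tested were lower. Without shNC replicates 1 and 3 in turn, 9 and 7 were lower in the first list and 13 and 11 in the second. Without shNC replicate 2 the counts were 22 and 24. Dnajb9, a co-chaperone of the endoplasmic reticulum, stood at 123, 116 and 202 CPM against 40.7, 34.8 and 42.8 CPM (-1.90, SE 0.24, edgeR adjusted p = 0.00499). Sec61a1, the pore of the translocation channel, stood at 394, 368 and 523 CPM against 186, 183 and 182 CPM (-1.22, SE 0.17, edgeR adjusted p = 0.00584). Both kept the call in each fit with a library left out. Cytosolic ribosomal proteins did not move as a list by this scaling, with 0 of 43 called in either direction and a median of 0.03 (3 higher with a median of 0.32 with library totals).

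The largest rises were mostly in genes at low levels in the controls. Atp6v0d2, a subunit of the lysosomal proton pump found in osteoclasts and macrophages, stood at 2.68, 0.473 and 2.43 CPM in shNC and 76.8, 112 and 137 CPM in shGm26917 libraries. That is a log2 fold change of 5.86 (SE 0.56, edgeR adjusted p = 0.00273), and no control came near the lowest shGm26917 library. Clec9a, a receptor for dead cells known from dendritic cells, stood at 0.938, 0 and 0.608 CPM against 26.2, 18.999 and 18.9 CPM (5.35, SE 0.68, edgeR adjusted p = 0.00508; 6.08 without shNC replicate 1 and 4.76 without replicate 2). Lpin1, a phosphatidate phosphatase of lipid synthesis, had even groups of 1.07, 1.22 and 1.35 CPM and 18.8, 25.1 and 16.6 CPM (4.05, SE 0.24, edgeR adjusted p = 0.0015). Tbc1d2, a Rab7 GTPase activator, likewise stood at 3.55, 2.64 and 2.97 CPM against 25.8, 31.9 and 31.1 CPM (3.27, SE 0.18, edgeR adjusted p = 0.0015). Ppargc1b, a coactivator of mitochondrial genes, stood at 0.871, 1.49 and 0.338 CPM against 12.01, 11.99 and 8.56 CPM (3.58, edgeR adjusted p = 0.0051). Steap3, an endosomal iron reductase, stood at 4.09, 7.23 and 1.49 CPM against 49.1, 59.4 and 47.5 CPM (3.60, edgeR adjusted p = 0.00603; 4.20 without shNC replicate 2).

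The other members of the 14 largest rises were of varied function. They were Mcf2l (5.26, and 6.90 without shNC replicate 1), the focal adhesion protein Tns1 (4.80, and 5.39 without shNC replicate 2), the Wnt antagonist Dkk2 (4.26), the glycosyltransferase Galnt9 (3.87, and 5.0 without shNC replicate 1), Fcor (3.62), Ppfia4 (3.40), Alox15 (3.55) and the adhesion receptor Adgre4 (3.24). The edgeR adjusted p-values of these 8 lay between 0.00237 and 0.0223. Alox15 and Adgre4 alone among the 14 lost the call in fits with a library left out: Alox15 in 5 of the 6, all but that without shNC replicate 2 (0.0504 to 0.0763), and Adgre4 without shNC replicate 3 (0.0614), shGm26917 replicate 2 (0.0825) or 3 (0.0781).

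Lysosomal genes were higher in 13 of 30 tested cases and lower in 1, with a median log2 fold change of 0.38 (18 higher and 0 lower with library totals, 18 and 2 without shNC replicate 2). The count fell to 3 or 4 without any 1 of the other 5 libraries. Gpnmb, a glycoprotein of lysosomes and phagosomes, stood at 362, 372 and 264 CPM in shNC and 1326, 1525 and 1147 CPM in shGm26917 libraries (2.00, SE 0.20, edgeR adjusted p = 0.00334), and Ctsk, the collagen-degrading cathepsin K, at 4.35, 2.09 and 3.78 CPM against 12.4, 19.9 and 24.1 CPM (2.46, edgeR adjusted p = 0.00685). Neither lost the call when a library was left out. Tfeb, the transcription factor of lysosomal genes, stood at 8.91, 16.2 and 4.52 CPM against 23.6, 31.9 and 31.01 CPM (1.54, edgeR adjusted p = 0.042), with the call lost without any 1 library other than shNC replicate 2 (0.0566 to 0.127). TCACGTGA, the extended E-box of such genes, stood in 5 of 21 lysosomal promoter windows (23.8%) and in 2.38% of the windows of all higher genes, beside 2.08% of those of all tested genes.

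Genes of lipid handling differed in both directions. The fatty acid binding proteins Fabp5 and Fabp4 stood at 66.6, 115 and 60.97 and at 29.1, 27.9 and 42.4 CPM in shNC libraries and at 623, 1133 and 499 and at 111, 232 and 109 CPM with shGm26917. Their log2 fold changes were 3.22 (SE 0.41, edgeR adjusted p = 0.00502) and 2.18 (SE 0.35, edgeR adjusted p = 0.00901). Lipa, the lysosomal lipase, was higher by 1.62 (edgeR adjusted p = 0.00631). These 3 kept the call in each fit with a library left out. Of 22 members of the lipid list 6 were higher and 4 lower (7 and 1 with library totals, 3 higher without shNC replicate 3 or shGm26917 replicate 1 or 3, and 1 lower without shNC replicate 3 or shGm26917 replicate 2 or 3), with a median of -0.06 that was 0.23 with library totals and 0.45 without shNC replicate 2. The 4 lower members were Ch25h, described above, and the lipid droplet genes Hilpda (-1.62) and Plin2 (-0.77) and the regulator of lipoprotein receptors Mylip (-0.64). The last 3 were not called with library totals (edgeR adjusted p 0.0527 to 0.213) or without shNC replicate 3 or shGm26917 replicate 2 or 3, nor Hilpda and Mylip without shNC replicate 1, nor Plin2 and Mylip without shGm26917 replicate 1. Mylip was also not called without the filter (0.0513). Of 26 genes of cholesterol synthesis 8 were higher and 0 lower, led by Dhcr7, which makes cholesterol from 7-dehydrocholesterol, at 7.24, 6.28 and 4.39 CPM against 31.9, 39.7 and 33.6 CPM (2.55, SE 0.21, edgeR adjusted p = 0.00235). The median of that list was 0.29 but -0.05 without shNC replicate 2, in which the list was low, and there 9 were higher and 3 lower. Without shGm26917 replicate 1, 2 or 3, 4, 2 and 3 were higher.

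The list of the tricarboxylic acid cycle and itaconate also holds cytosolic enzymes. Of its 26 tested genes 12 were higher and 1, Acod1, was lower, with a median of 0.41. With library totals 19 were higher and 1 lower. Without shNC replicate 3 or shGm26917 replicate 1, 2 or 3, 7, 8, 4 and 3 were higher. Idh1, the cytosolic isocitrate dehydrogenase that yields NADPH, stood at 112, 87.9 and 99.4 CPM in shNC and 335, 308 and 314 CPM in shGm26917 libraries (1.68, SE 0.14, edgeR adjusted p = 0.00233). Mdh1, the cytosolic malate dehydrogenase, stood at 74.8, 84.8 and 63.9 CPM against 137, 157 and 141 CPM (0.96, edgeR adjusted p = 0.00703). Both were called in each fit with a library left out. Among mitochondrial members, Sdhd (0.68) was called in each such fit, and Idh2 (1.64) in all but those without shGm26917 replicate 2 or 3. Of 31 nuclear-encoded subunits of the respiratory chain 6 were higher and 0 lower, with a median of 0.21, a count that the scaling decides, since it was 18 with library totals, and that was 3, 2, 2, 1 and 1 without shNC replicate 1 or 3 or shGm26917 replicate 1, 2 or 3. In contrast, 10 of 28 glycolysis and HIF1 target genes were lower and 0 higher (median -0.39; 5 and 1 with library totals; 6, 4, 3, 1 and 1 lower without the same 5 libraries). Gpx1, the glutathione peroxidase that removes hydrogen peroxide, was the member of the NRF2 antioxidant list that differed most, at 93.7, 100.1 and 55.7 CPM against 388, 404 and 466 CPM (2.33, SE 0.24, edgeR adjusted p = 0.00347).

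Enzymes of lipid mediators went both ways. Of 20 tested, 8 were higher and 5 lower, with a median of 0.69. Beside Ptgs2, the prostaglandin E synthase Ptges was lower, at 2108, 3186 and 2333 CPM against 976, 841 and 831 CPM (-1.53, SE 0.21, edgeR adjusted p = 0.00634). The lipoxygenase Alox5, which starts leukotriene synthesis, was higher at 9.51, 8.04 and 4.73 CPM against 58.2, 57.7 and 40.8 CPM (2.81, SE 0.29, edgeR adjusted p = 0.00334), and so was Ltc4s, the leukotriene C4 synthase, at 1.14, 0.270 and 0.810 CPM against 9.06, 5.69 and 8.79 CPM (3.39, SE 0.47, edgeR adjusted p = 0.00627). These 3 kept the call in each fit with a library left out, in which 2 to 11 members were higher (3 without shNC replicate 1 or 3, and 2, 2 and 3 without shGm26917 replicates 1, 2 and 3). Alox15, the 12/15-lipoxygenase of resident peritoneal macrophages, stood at 104, 12.8 and 109 CPM against 588, 1239.5 and 824 CPM, with shNC replicate 2 far below the other controls. The constitutive cyclooxygenase Ptgs1 stood at 38.1, 97.2 and 25.9 CPM against 293, 170.3 and 183 CPM (2.00, edgeR adjusted p = 0.0333; 2.74 without shNC replicate 2, and not called without any 1 of the other 5 libraries, 0.0738 to 0.101).

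**Figure D3:**
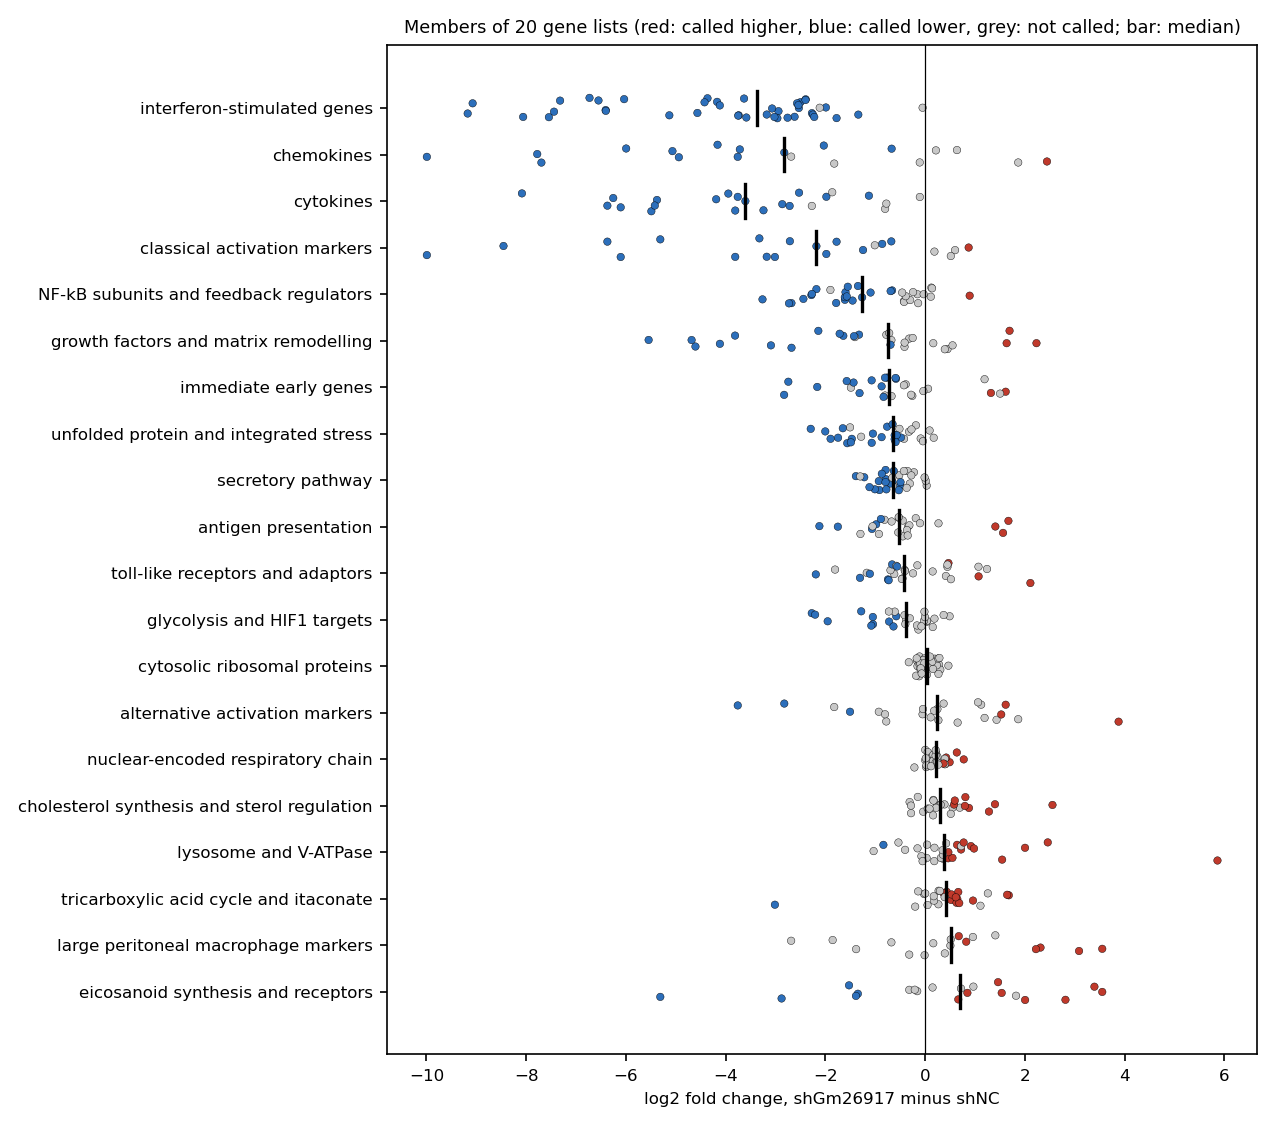
Log2 fold change (shGm26917 minus shNC) of each tested member of 20 gene lists, with members called higher in red, called lower in blue and not called in grey, and the list's median as a bar. Medians run from -3.60 for cytokines to 0.69 for eicosanoid genes, and the 43 ribosomal proteins lie near 0.

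By number of members, more identity genes of macrophages were higher than lower. Of 14 core markers 6 were higher and 2 lower, with a median of 0.51, against 7 and 1 with library totals and 3, 4, 4, 1 and 3 higher without shNC replicate 1 or 3 or shGm26917 replicate 1, 2 or 3. The 2 lower were Cd14, described above (-2.19), and Fcer1g (-0.64). Fcer1g was not called with library totals (edgeR adjusted p = 0.128) or without any 1 library other than shNC replicate 2 (0.072 to 0.121). The most negative member, at -3.33, was not called. Csf1r, the receptor of the macrophage growth factor M-CSF, stood at 1149.5, 1063 and 803 CPM in shNC and 2462, 2751 and 2292 CPM in shGm26917 libraries (1.32, SE 0.20, edgeR adjusted p = 0.00782). Cebpa, a transcription factor of the myeloid lineage that is not among the core markers, stood at 57.7, 46.6 and 41.99 CPM against 199.7, 156 and 162 CPM (1.82, SE 0.17, edgeR adjusted p = 0.00258). Both kept the call in each fit with a library left out. Lyz2 stood at 7244, 3097 and 5709 CPM against 9959.8, 19199 and 15732 CPM (1.48, SE 0.41, edgeR adjusted p = 0.042), a call that was lost without any 1 library other than shNC replicate 2 (0.0577 to 0.133). Adgre1, the receptor F4/80, did not pass the test at 1322, 2092 and 1149 CPM against 1549, 1246 and 996 CPM (-0.27, SE 0.29, edgeR adjusted p = 0.528; 0.02 with library totals or without shNC replicate 2; chosen, like Saa3, after its values were seen). Markers of large, embryo-derived peritoneal macrophages were higher in 6 of 18 cases and lower in 0 (median 0.51; 7 higher and 2 lower without shNC replicate 2, and 4, 4, 5, 2 and 4 higher without the other 5 libraries in turn). Their summed level went the other way, at 48010, 73600 and 51920 CPM in shNC and 36590, 30880 and 23110 CPM in shGm26917 libraries. Cd93, a receptor on these cells, stood at 51.3, 91.6 and 54.8 CPM against 299, 388 and 234 CPM (2.22, SE 0.29, edgeR adjusted p = 0.00541). The acute phase protein Saa3, the most abundant member, was not called at 19115, 54266 and 15546 CPM against 7225, 10998 and 6357 CPM (-1.86, edgeR adjusted p = 0.0523), but was without shNC replicate 2 (-1.10, 0.0132), with no filter (0.0299) and by DESeq2 (0.000817).

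Markers of alternative activation showed no shared direction, with 3 higher and 3 lower of 23 (6 and 3 with library totals, 9 and 4 without shNC replicate 2, and 1 and 0 without shGm26917 replicate 3). Cd200r1, an inhibitory receptor, was higher at 46.4, 32.97 and 48.7 CPM against 126, 125 and 118 CPM (1.52, SE 0.17, edgeR adjusted p = 0.00355) in each fit with a library left out. Pparg, the lipid-sensing nuclear receptor, had 3 counts in all shNC and 60 in all shGm26917 libraries, a ratio of 16.0 with a 95% counting interval of 5.23 to 79.9 (edgeR adjusted p = 0.0307, lost without any 1 of shNC replicate 3 and the shGm26917 libraries, 0.0729 to 0.106). Without shNC replicate 1, which held those counts, its fitted log2 fold change was 7.22 in place of 3.88.

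Annexins, calcium-dependent membrane-binding proteins, and their partners were measured because Annexin A1 is named in the series title. Anxa1 (ENSMUSG00000024659) stood at 32.02, 42.4 and 23.8 CPM in shNC and 96.9, 114 and 135 CPM in shGm26917 libraries. Every shGm26917 library was above every control, with a log2 fold change of 1.82 (SE 0.24, edgeR adjusted p = 0.00521) that was called in each fit with a library left out. Anxa3 stood at 77.98, 71.8 and 58.9 CPM against 189, 243 and 277 CPM (1.76, SE 0.19, edgeR adjusted p = 0.00351). The receptors through which Annexin A1 acts on cells were lower: Fpr1 stood at 903, 1212 and 957 CPM against 264, 219 and 319 CPM (-1.94, SE 0.21, edgeR adjusted p = 0.00351). Fpr2 stood at 557, 431 and 619.9 CPM against 230.5, 283 and 371 CPM (-0.86, SE 0.23, edgeR adjusted p = 0.0363), a call lost with library totals (0.0999) and without any 1 library other than shNC replicate 2 (0.0533 to 0.13). Of the list 5 of 14 tested members were higher and 3 lower (6 and 1 with library totals), and the lower count was 1 without any 1 library other than shNC replicate 2, where it was 5.

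Summed markers of other cell types differed widely in level between the lists and also between libraries. Monocyte markers summed to 6322, 698 and 5539 CPM in shNC and 6248, 5825 and 4221 CPM in shGm26917 libraries. Most of this was Fn1, the matrix protein fibronectin, which is also on the list of large peritoneal macrophage markers, at 6174, 521, 5393, 6087, 5705 and 4091 CPM over the 6 libraries in the same order. Erythroid and platelet markers summed to 2879 to 3763 CPM in shNC and 2133 to 3724 CPM in shGm26917 libraries, nearly all of it the chemokine Pf4, while Slc4a1 of red cells was at 0 in all 6. Markers of small peritoneal macrophages and dendritic cells summed to 130.3 to 220.1 CPM in shNC and 151 to 288 CPM in shGm26917 libraries, with 0 of 14 tested members higher and 2 lower. The 2 were Xcr1 (-3.06) and Ccr7 (-2.50), and the median of the list was 0.22. Without shNC replicate 2 the counts were 4 higher and 3 lower, and by DESeq2 2 and 4. The call of Xcr1 was lost without any 1 library other than shNC replicate 2 (edgeR adjusted p 0.0534 to 0.133). Endothelial markers summed to 9.11 to 25.1 and 11.7 to 13.96 CPM, with Erg at 0 in all 6. Of 4 tested endothelial markers Vwf was higher (1.79) and Cdh5 lower (-2.55). Cdh5 was not called without shNC replicate 1 or shGm26917 replicate 2 or 3. Mesothelial and fibroblast markers summed to 24.1 to 31.2 and 6.21 to 33.0 CPM, with Gpm6a at 0. Markers of B cells summed to 354, 692 and 233 CPM in shNC and 172, 389 and 276.5 CPM in shGm26917 libraries. Markers of T and NK cells summed to 8.58 to 18.3 CPM and 5.24 to 7.12 CPM. Of the 20 such markers 2, Nkg7 and Eomes, were at 0 in all 6. The 2 that were tested, Lck (-0.99) and Cd2 (-0.76), were not called. Neutrophil markers summed to 804 to 1256 CPM in shNC and 627 to 758 CPM in shGm26917 libraries, with 3 of 6 tested members lower and 1 higher (1 lower without shGm26917 replicate 2 or 3, 2 without replicate 1, and 0 higher without shNC replicate 3 or shGm26917 replicate 1 or 3, against 2 without shNC replicate 2), and Ly6g, Retnlg, Ngp and Stfa2l1 were at 0 in all 6. Mast cell and eosinophil markers summed to 645, 310 and 841 CPM in shNC and to 104, 48.5 and 37.7 CPM with shGm26917, most of it Hdc, the histamine-forming enzyme, at 631, 236 and 836 CPM against 95.6, 37.1 and 29.4 CPM (-3.39, SE 0.64, edgeR adjusted p = 0.0137; -4.10 without shGm26917 replicate 1, and not called without replicate 2, 0.067, or 3, 0.0595). The eosinophil markers Prg2, Epx and Ear1 were at 0 in all 6, and Hdc was the sole called member of 8 tested. The part of these cells in the differences above was not tested. The share of counts from the mitochondrial genome was 0.523% to 0.839% in shNC and 0.927% to 0.976% in shGm26917 libraries, and the part of RNA quality was not tested.

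**Figure D4:**
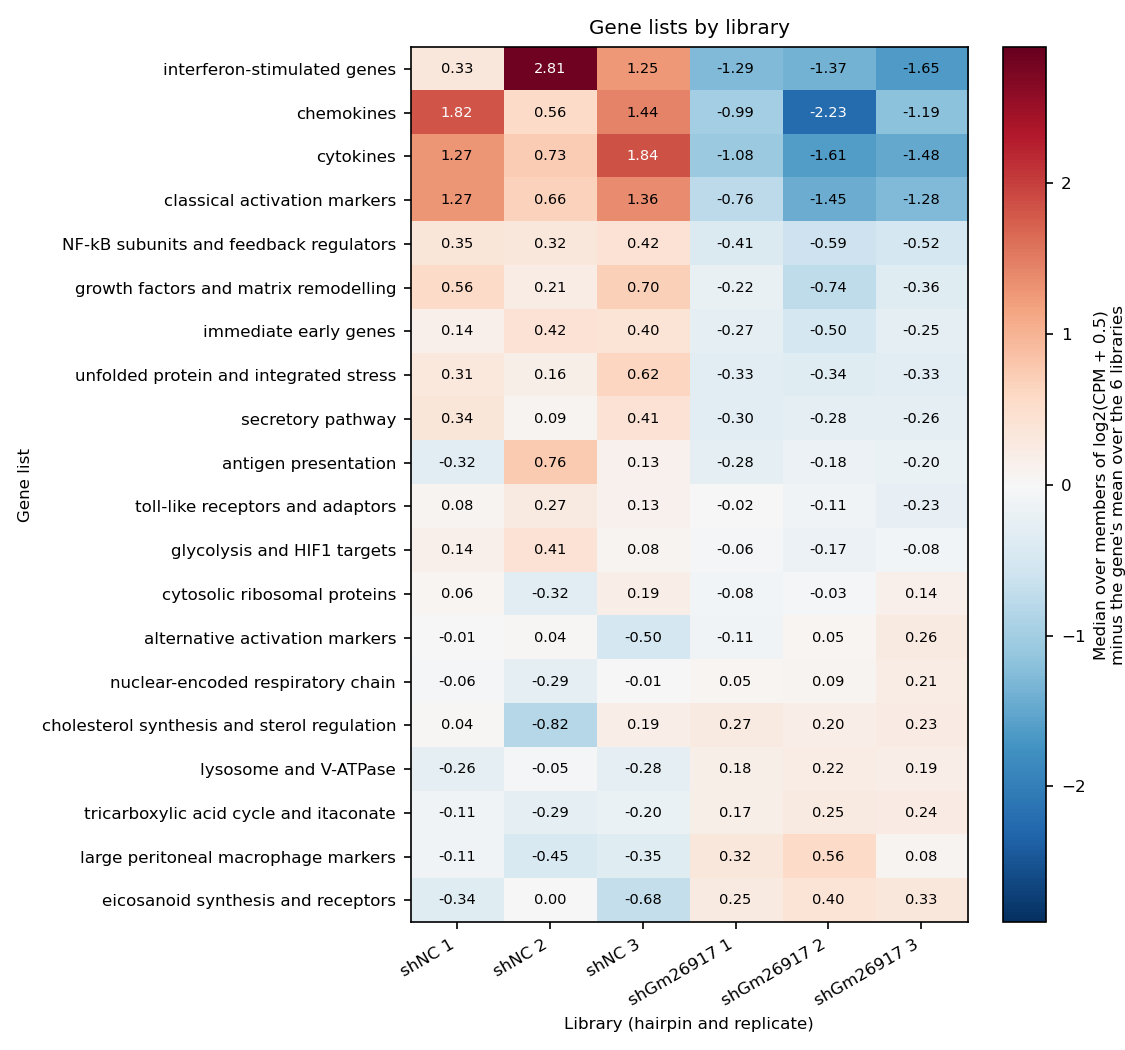
Median over the members of 20 gene lists of log2(CPM + 0.5) minus each gene's mean over the 6 libraries, for each library (colour and number). Interferon-stimulated genes stand at 0.33, 2.81 and 1.25 in shNC replicates 1, 2 and 3 and at -1.29, -1.37 and -1.65 in the shGm26917 libraries, while cytokines stand at 1.27, 0.73 and 1.84 and at -1.08, -1.61 and -1.48.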

How the data were processed

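The authors deposited a table for each library with raw read counts by Ensembl identifier, per the file headers, without normalization. Tools named per the submitters' processing notes were STAR and featureCounts 1.6.3, with the build mm10. Annotation release, strand setting and treatment of multi-mapping reads: not given in the sources used here, so reads of near-identical copies, such as Ifit3 and Ifit3b, and of overlapping or antisense genes may be split or shared. The macrophage headers carry the word combined, without saying of what. Groups come from the treatment labels, and the lists and named genes were chosen with earlier results of these data known.

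Symbols were matched for 55141 of 55401 IDs, and coordinates are those of GENCODE M21 (GRCm38). Genes were kept with filterByExpr at its defaults (minimum count 10, minimum total 15) and tested across all genes in edgeR 4.0.16 (R 4.3.3) with TMM scaling, group as the sole factor, glmQLFit and the 2-sided glmQLFTest. P-values were adjusted by Benjamini-Hochberg over 12876 genes, and a gene was called when that value was under 0.05. Differences are shGm26917 minus shNC on the log2 scale, their SE was taken as their size over the root of F, and CPM are on TMM-scaled library sizes. No library pair agreed within sampling noise (chi-square per degree of freedom 30.6 or more), so none was treated as a library deposited again. The fit was tested on simulated data. Alternatives were DESeq2 1.42.0, RLE factors, library totals, other filters, a replicate block and leaving out each library. Lists (51, with 1025 tested genes) were described by counts and medians, without a test.

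Genes were named by rule: called, groups not overlapping, a symbol that is no clone name and a mean of at least 5 CPM, taking the 14 largest rises and the 14 largest falls, with Gm26917, Anxa1 and up to 4 called members in each direction of each list. Promoter windows are RefSeq's, the 1 nearest to the GENCODE 5′ end for each gene, searched on both strands. Results for some named genes are not reported here.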

Additional observations from a re-analysis of the deposited data

How the results depend on the processing

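Against 3049 called (1618 higher and 1431 lower), leaving out 1 library gave 839 to 5236 called, 479 to 2715 higher and 360 to 2521 lower. Library totals gave 3929 called, 3135 higher and 794 lower, and 2410 of the 3049 calls kept. DESeq2 called 4002 genes (3034 shared with edgeR), RLE factors 3075, no filter 2736, a filter of 1 CPM in 3 libraries 3065, and the replicate block 2594 (2342 shared). Of the 233 called genes chosen by the naming rule, 106 were called in all 6 fits with a library left out and 127 were lost in at least 1. Library totals ended the call of 17 of the 233, no filter of 11 and RLE factors of 3. The block ended that of 25 (Lyz2, Pparg and Adgre4 among them), while Saa3 gained one at -1.66 (edgeR adjusted p = 0.0267). Where an adjusted p was given, DESeq2 and the 1 CPM filter ended the call of 0. However, 4 genes (Ifit3, Ifit3b, Apol9b and Lcn2) had no DESeq2 adjusted p, and Xcr1 and Pparg did not pass the 1 CPM filter. Signs turned in 3 uncalled genes: Rplp0 (-0.04) stood at 0.26 with library totals, 0.01 without shNC replicate 3 and 0.02 without shGm26917 replicate 1, Rpl4 (-0.07) at 0.23 with library totals and 0.07 without shNC replicate 3, and Adgre1 (-0.27) at 0.02 with library totals and 0.02 without shNC replicate 2. Leaving out 1 library gave -0.13 to 0.02, -0.25 to 0.07 and -0.45 to 0.02 for these 3. Same-numbered libraries deviated together at r = -0.041, 0.240 and 0.178. For replicates 2 and 3 the same-numbered library was the best match, while shNC replicate 1 correlated best with shGm26917 replicate 3 (0.157). These values do not settle whether the libraries were paired. The labels do not say that the numbers mark pairs, so the block was kept as an alternative.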

Other observations

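Further gene lists are given here by their counts. Beside them, 12.6% of all genes were higher and 11.1% lower with all 6 libraries. The shares of all genes with library totals or with a library left out are given above. Of 36 genes of the actin cytoskeleton 6 were lower (16.7%) and 1 higher (2.78%; 4 lower with library totals, 14 lower without shNC replicate 2 and 3 without shGm26917 replicate 2), among them Marcksl1, a membrane-bound actin regulator, at 480.0, 689 and 690.2 CPM in shNC and 88.8, 129 and 111 CPM in shGm26917 libraries (-2.50, SE 0.22, edgeR adjusted p = 0.00251). Tnfrsf1b, the second TNF receptor, stood at 3622, 2797 and 4279 CPM against 699, 576 and 752 CPM (-2.40, SE 0.23, edgeR adjusted p = 0.00288), while 7 of 28 chemokine and cytokine receptors were higher (12 without shNC replicate 2, and 2, 3, 2 and 2 without shNC replicate 1 or 3 or shGm26917 replicate 1 or 2). Of phagocytic and efferocytic receptors 7 of 32 were higher and 6 lower (9 and 3 with library totals, 14 and 7 without shNC replicate 2, and 4 and 2 without shGm26917 replicate 3). Gas6, a bridge between dying cells and their receptors, stood at 1.005, 0.473 and 1.35 CPM against 6.11, 8.27 and 11.1 CPM (3.16, edgeR adjusted p = 0.00541), and the integrin subunit Itgb3 at 2.95, 3.72 and 3.85 CPM against 0.305, 0.383 and 0.170 CPM (-3.57, edgeR adjusted p = 0.00342).

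Single genes of other lists had groups that lay far apart. Ccnd2, a cyclin of the first growth phase, stood at 100.4, 67.6 and 115 CPM against 7.03, 6.63 and 10.3 CPM (-3.56, SE 0.27, edgeR adjusted p = 0.00233), although 2 of 30 cell cycle genes were lower and 1 higher (4 and 6 without shNC replicate 2). Ly6c2, a surface protein of inflammatory monocytes, stood at 8.98, 10.001 and 7.49 CPM against 0.764, 0.767 and 0.680 CPM (-3.57, SE 0.23, edgeR adjusted p = 0.00204). It has close relatives with which it may share reads. Ddit4, an inhibitor of mTOR signalling, stood at 24.9, 26.6 and 22.8 CPM against 4.73, 3.504 and 5.44 CPM (-2.44, SE 0.20, edgeR adjusted p = 0.00233). Mir155hg, the host transcript of the microRNA miR-155, stood at 72.9, 55.9 and 76.4 CPM against 9.11, 2.41 and 5.05 CPM (-3.63, SE 0.45, edgeR adjusted p = 0.00492). These 4 genes kept the call in each fit with a library left out. The sole called members of the mitochondrially encoded list were its ribosomal RNAs, both lower: mt-Rnr2 stood at 181, 236 and 275 CPM against 117, 96.7 and 122 CPM (-1.05, edgeR adjusted p = 0.0116, not called without shGm26917 replicate 2, 0.0594). The call of mt-Rnr1 (-0.74, edgeR adjusted p = 0.021) was lost with library totals (0.0527), without shNC replicate 3 (0.0554) and without any 1 shGm26917 library (0.0588 to 0.0955), and the median over 12 such transcripts was 0.29 and 0 of them were called higher.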
